A study of Homo sapiens with 20 samples.

Results

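The nuclear-encoded subunits of the mitochondrial respiratory chain were followed through erythroid differentiation of HUDEP-2 cells. The members were every gene whose symbol matched the subunit families of complex I (NDUFA, NDUFB, NDUFC, NDUFS and NDUFV with a number, and NDUFAB1), complex II (SDHA to SDHD), complex III (UQCR), complex IV (COX4 to COX8) or complex V (ATP5F, ATP5M and ATP5P), and that had at least 1 RefSeq mRNA transcript. This gave 87 of 46425 genes, with 38 in complex I, 4 in complex II, 9 in complex III, 17 in complex IV and 19 in complex V. A further 68 symbols matched without an mRNA transcript and were left out. The symbols leave out CYC1, the cytochrome c1 gene of complex III. They take in the readthrough ATP5MF-PTCD1, the UQCRH copy UQCRHL, COX7A2L, which is known for its part in joining complexes, and NDUFA4, which is counted here under complex I by its name although its protein is known from complex IV.

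Complexes I to IV pass electrons from NADH and succinate to oxygen in the inner mitochondrial membrane, and complexes I, III and IV pump protons as they do so. Complex V, ATP synthase, lets the protons flow back through a ring of c subunits and drives ATP synthesis in its F1 head. Most subunits are encoded in the nucleus and the rest in mitochondrial DNA, and erythroid cells, which also need mitochondria for heme and iron-sulfur cluster synthesis, lose these organelles as they mature into red cells.

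HUDEP-2 cells are erythroid progenitors from human umbilical cord blood that were made to grow without limit, and every group was the wild type of this 1 line. The D0 group was taken at the start, before differentiation. Per the study's methods, such cells were expanded in serum-free medium with stem cell factor, erythropoietin, dexamethasone and doxycycline. Comparisons with D0 thus also hold a change of medium, including the loss of dexamethasone. The D1 to D8 and D12 groups had spent that number of days in differentiation medium with holo-transferrin, human AB serum, heparin, insulin, erythropoietin, stem cell factor and doxycycline. Stem cell factor was withdrawn on day 6 and doxycycline on day 8, so the D12 cells alone had gone on without doxycycline, and time and medium cannot be told apart. Each of the 10 days had 2 RNA-seq libraries, of which 1 stood in a table spanning all days (joint library) and 1 in tables of separate days (separate library), and pairs of values below give the joint library first. Nothing in the labels says that the libraries of a day came from separate cultures, so p-values measure the spread between libraries, which may be technical. The question was how the subunit mRNAs of each complex changed between D0, D4-D6, D8 and D12, which in the study's staging are proerythroblasts, basophilic erythroblasts, polychromatic erythroblasts, and orthochromatic erythroblasts with reticulocytes.

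Libraries held between 52131713 and 70358198 counts. Ribosomal RNA took 18.5% and 17.5% of the counts in the separate libraries of D7 and D8 against 1.03% to 4.08% in the others. For the members, comparisons with D8 are therefore also given with the separate D8 library left out. For the other genes and gene lists they are given with all libraries only. Globin genes held 2.90 and 2.91% of TPM, a share of transcripts scaled for their length, on D0 and 63.0 and 59.4% on D12. All 9 erythroid markers rose from D0 to D4-D6 and from D4-D6 to D8, while the summed TPM of 4 monocyte and macrophage markers was between 1.94 and 30.8, with 1 of the 4 (CD68) above 1 TPM in any library. CD68 was called higher from D8 to D12 (log2 1.69 ± 0.44, edgeR adjusted p = 0.00519), at 1.89 and 3.25 TPM on D8 and 2.55 and 3.86 on D12, and its part in the D12 results was not tested. The summed TPM of lymphocyte, megakaryocyte, and fibroblast and endothelial markers was at most 2.62, 0.315 and 0.0296. In bulk RNA, fewer cells of a type and less RNA per cell cannot be told apart. Between the libraries of a day, 65.4% to 93.8% of the tested members differed beyond counting error. Over all genes with enough counts the share was 61.7% to 76.1%. The edgeR test used the spread between libraries.

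The promoters of many members carry short motifs of factors known to regulate respiratory genes, and 5 of them are shown because their genes come up below as rising, falling or mixed. RefSeq (GRCh38.p14) promoters, from 250 bases before to 50 after the start, were found for 70 of the 87 members and searched on both strands for the cores of nuclear respiratory factor 1, NRF1 (GCATGCGC), of the ETS family that includes GABP (CCGGAAG), and of YY1 (AAGATGGC). The NRF1 core was in 13 of the 70 promoters (18.6%) against 3.27% of all 27305 promoters and 5.52% of the 11459 promoters of tested genes. The ETS core was in 20 (28.6%) against 10.7% and 18.9%, and the YY1 core in 11 (15.7%) against 3.03% and 5.18%. No matches of different motifs overlapped in a member promoter. SDHB and ATP5PF held all 3 motifs, 6 members held 2, 26 held 1 and 36 held none. The sequences below run 5′ to 3′ on the strand of the gene, and the capitals mark the matches. They cover chr1:17053983-17054282 (minus strand) for SDHB, chr21:25735005-25735304 (minus) for ATP5PF, chr12:120437863-120438162 (plus) for COX6A1, chr19:1605413-1605712 (minus) for UQCR11 and chr12:53676034-53676333 (minus) for ATP5MC2.
SDHB: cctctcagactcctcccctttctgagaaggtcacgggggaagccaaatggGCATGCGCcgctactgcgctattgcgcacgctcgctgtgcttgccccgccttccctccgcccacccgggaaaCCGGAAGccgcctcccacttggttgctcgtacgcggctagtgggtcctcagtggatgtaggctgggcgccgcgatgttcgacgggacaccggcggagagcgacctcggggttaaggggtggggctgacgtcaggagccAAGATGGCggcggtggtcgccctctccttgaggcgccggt
ATP5PF: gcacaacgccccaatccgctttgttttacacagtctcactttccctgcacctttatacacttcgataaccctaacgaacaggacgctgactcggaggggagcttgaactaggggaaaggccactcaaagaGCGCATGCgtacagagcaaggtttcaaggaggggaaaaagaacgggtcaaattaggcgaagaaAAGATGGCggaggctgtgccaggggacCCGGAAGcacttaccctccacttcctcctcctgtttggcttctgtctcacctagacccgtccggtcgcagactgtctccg
COX6A1: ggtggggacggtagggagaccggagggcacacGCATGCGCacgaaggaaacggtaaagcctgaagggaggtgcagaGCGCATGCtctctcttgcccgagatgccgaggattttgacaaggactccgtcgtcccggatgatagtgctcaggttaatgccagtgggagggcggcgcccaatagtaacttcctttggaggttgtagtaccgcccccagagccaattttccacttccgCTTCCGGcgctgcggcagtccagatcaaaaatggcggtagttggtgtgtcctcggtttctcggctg
UQCR11: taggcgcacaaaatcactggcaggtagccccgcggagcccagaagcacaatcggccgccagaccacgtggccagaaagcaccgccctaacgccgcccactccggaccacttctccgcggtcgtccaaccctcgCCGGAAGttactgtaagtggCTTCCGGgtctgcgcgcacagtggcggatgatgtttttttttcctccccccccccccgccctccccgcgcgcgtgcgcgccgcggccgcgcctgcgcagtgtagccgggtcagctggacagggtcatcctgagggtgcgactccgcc
ATP5MC2: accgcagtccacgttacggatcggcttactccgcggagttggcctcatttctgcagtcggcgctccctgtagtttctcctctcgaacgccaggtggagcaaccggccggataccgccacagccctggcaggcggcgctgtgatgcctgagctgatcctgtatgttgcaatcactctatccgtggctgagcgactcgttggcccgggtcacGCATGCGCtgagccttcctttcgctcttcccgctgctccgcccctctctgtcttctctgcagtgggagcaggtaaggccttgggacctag
SDHB and ATP5PF each hold the cores of all 3 factors, COX6A1 holds the NRF1 core on each strand beside an ETS core, UQCR11 holds the ETS core on each strand, and ATP5MC2 holds the NRF1 core. A match is a description of the letters and was not tested as a binding site.

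The members together held 2.26 and 2.06% of TPM on D0, 1.43 and 1.04% on D8 and 0.507 and 0.513% on D12. With globin and ribosomal RNA genes taken out of the total, the shares were 2.37 and 2.14%, 1.94 and 1.62% and 1.43 and 1.33%. Both libraries of D12 were thus below all 18 others on either total. On D0 the summed TPM was 7731 and 6933 for complex I, 7663 and 6888 for complex V and 4736 and 4412 for complex IV. Complexes III and II stood lower, at 1908 and 1842 and at 595 and 506.

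On D12 complex I had 1934 and 1874, complex IV 1372 and 1382 and complex V 1282 and 1337 summed TPM. The order of complexes IV and V was therefore reversed, since complex IV was at 0.618 and 0.641 times complex V on D0, at 0.716 and 0.878 times on D8, and at 1.07 and 1.03 times on D12, and the D12 pair lay above all earlier libraries. Complex II went from 2.63% and 2.46% of the members' TPM on D0 to 1.52% and 1.71% on D12, again without overlap. These ratios lie within a library and do not depend on how libraries are scaled to each other. The highest member by mean TPM over the 20 libraries was NDUFB9 in complex I (977), SDHB in complex II (131), UQCRH in complex III (473), COX6B1 in complex IV (559) and ATP5F1A in complex V (858).

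**Figure D1:**
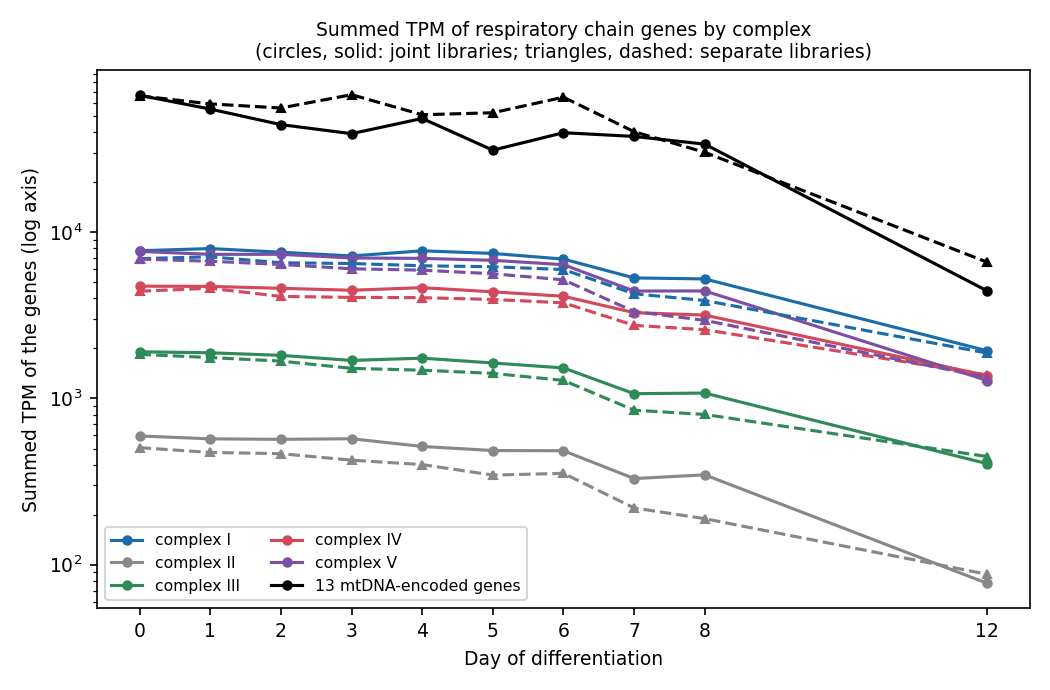
Summed TPM (log axis) of the nuclear-encoded genes of each complex and of the 13 subunits encoded in mitochondrial DNA, by day of differentiation, with a line and marker style for each of the 2 libraries of a day. On D7, D8 and D12 both libraries of complexes I, III, IV and V lie below all libraries of D0 to D6, and on D12 the complex IV line lies at or just above that of complex V.

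Of the 87 members, 81 had enough counts to be tested, and 6 did not. COX4I2, COX6A2, COX7A1, COX7B2 and COX8C had 0 counts in all 20 libraries, where 0 counts allow up to 3 counts in a library, or at most 0.0575 CPM. These are isoforms known from lung, muscle or testis, and their partners COX4I1, COX6A1, COX7A2, COX7B and COX8A were all measured. ATP5MGL, a copy of ATP5MG, reached at most 7 counts in a library. Genes were compared with edgeR's quasi-likelihood test with Benjamini-Hochberg adjustment over 16784 genes, in a fit of all 20 libraries, and a gene is said to rise or fall where the adjusted p was under 0.05. Levels for these tests are CPM, counts divided by library sizes that were scaled with TMM factors, and values after ± are standard errors of log2 fold changes. Where libraries of genes that passed the test are said not to overlap, this describes genes picked by the test and is no separate support.

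From D0 to D4-D6, 3 of the 81 members rose, against 7.38% of all genes tested, and 2 fell, against 9.22%. These shares of 3.70% and 2.47% were below those of all genes, and the median log2 fold change of the members was -0.04 against -0.01 over all genes. COX7A2L (chr2:42333546-42425088, hg38, minus strand) was at 84.7 and 88.0 CPM on D0 and between 123 and 172 CPM, with a median of 136, in the 6 libraries of D4-D6. All 6 lay above both D0 libraries, and the log2 fold change was 0.73 ± 0.13 (edgeR adjusted p = 0.00204).

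NDUFS4, an accessory subunit of the electron-input arm of complex I, was at 17.8 and 16.2 CPM on D0 and between 23.9 and 26.6 CPM on D4-D6, a log2 fold change of 0.57 ± 0.11 (edgeR adjusted p = 0.00316). ATP5F1E, the epsilon subunit of the F1 stalk, was at 119.9 and 109.8 CPM on D0 and between 139.8 and 169 CPM on D4-D6, a log2 fold change of 0.42 ± 0.11 (edgeR adjusted p = 0.0226). Neither gene's D4-D6 libraries overlapped those of D0. NDUFB2, in the membrane arm of complex I, fell by 0.49 on the log2 scale (SE 0.12, edgeR adjusted p = 0.0107) from 30.9 and 34.3 CPM to between 20.6 and 26.8. ATP5PF, coupling factor 6 in the stator stalk of ATP synthase, fell by 0.35 (SE 0.10, edgeR adjusted p = 0.0321) from 117 and 122 CPM to between 87.1 and 102.

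Their libraries did not overlap those of D0 either, which describes genes that the test had picked. Of the 8 fits that left out a library, the call of ATP5PF was lost in all 8, that of ATP5F1E in 5, and those of NDUFS4 and NDUFB2 in 1 each. Without the separate D0 library the counts were 1 higher (COX7A2L) and 0 lower, and ATP5PF had an edgeR adjusted p of 0.253. No subunit of complexes II and III passed the edgeR test in this step, and 1 of their 13 genes had an unadjusted p under 0.05.

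From D4-D6 to D8, 2 members rose, against 11.9% of all genes tested, and 7 fell, against 10.8%. The median log2 fold change of the members was -0.18 and that of all genes 0.01. COX7A2L went on to 217 and 232 CPM, a log2 fold change of 0.65 ± 0.12 (edgeR adjusted p = 0.00268), and ATP5F1E to 191 and 199 CPM, with 0.34 ± 0.11 (edgeR adjusted p = 0.0393). Both D8 libraries lay above all 6 of D4-D6 for either gene. The call of ATP5F1E was lost in 5 of the 8 fits that left out a library, and its log2 difference on the TPM scale was -0.10. COX5A, a subunit that joins complex IV early in assembly, was at 68.7 and 55.5 CPM against 82.1 to 101 (median 94.8) on D4-D6, and fell by 0.59 on the log2 scale (edgeR adjusted p = 0.00940).

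The c subunit gene ATP5MC2 was at 124 and 103 CPM against 146 to 193 CPM, and fell by 0.56 (edgeR adjusted p = 0.0106). NDUFS5, an accessory subunit of complex I, was at 70.1 and 57.6 CPM against 76.3 to 103, and fell by 0.52 (edgeR adjusted p = 0.0112). None of these D8 values overlapped D4-D6. UQCRFS1, the Rieske iron-sulfur subunit of complex III, fell by 0.34 (edgeR adjusted p = 0.0379). Its call was lost in all 8 fits that left out a library, whichever library it was. The other 3 that fell were NDUFAB1, ATP5PB and ATP5ME, named after their values were seen. All 9 calls rest on the separate D8 library, which is rich in ribosomal RNA: without it no member passed the test in either direction, and the value of COX7A2L was 0.60 (edgeR adjusted p = 0.0680). Without the joint D8 library 1 rose and 16 fell, and with the table of origin as a term in the fit 24 fell. On log2(TPM + 1) limma gave 0 members higher, against 4.39% of 11953 genes, and 62 lower, against 44.6%.

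Over the whole span from D0 to D8, 4 members rose, against 17.7% of all genes tested, and 18 fell, against 19.4%, which is 4.94% and 22.2% of the members, so on the TMM scale the share that fell was near that of all genes. On log2(TPM + 1) limma gave 1 higher (COX7A2L), against 8.13% of 11953 genes, and 63 lower, against 49.5%. COX7A2L rose 2.60-fold (log2 1.38 ± 0.15, edgeR adjusted p = 2.56e-05) and ATP5F1E 1.70-fold (log2 0.76 ± 0.14, edgeR adjusted p = 8.76e-04). NDUFA2, an accessory subunit of complex I, went from 30.1 and 22.1 CPM to 43.7 and 40.5 (log2 0.69 ± 0.22, edgeR adjusted p = 0.0270), and NDUFS4 was the remaining gene that rose (log2 0.53 ± 0.13, edgeR adjusted p = 0.00643). In each of the 4 genes both D8 libraries lay above both D0 libraries. Of the 4 fits that left out a library, the call of NDUFA2 was lost in 3 and that of NDUFS4 in 1, and the log2 difference of NDUFS4 on the TPM scale was -0.0774.

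The falls were 9 of the 18 tested genes in complex V, 4 of 38 in complex I, 2 of 4 in complex II, 2 of 9 in complex III and 1 of 12 in complex IV. Of all genes tested, 19.4% fell in this step. The c subunit gene ATP5MC3 went from 167 and 158 CPM to 111 and 71.6 and fell by 0.84 on the log2 scale (edgeR adjusted p = 0.0317). ATP5F1B, the catalytic beta subunit of F1, went from 829.9 and 833 CPM to 567 and 422 and fell by 0.75 (edgeR adjusted p = 0.0155). ATP5F1C, the gamma subunit of the central stalk, went from 189 and 183 CPM to 139.8 and 88.2 and fell by 0.71 (edgeR adjusted p = 0.00984).

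For these 3 genes both D8 libraries lay below both of D0, with the separate library the lower of the D8 pair. Of the 4 fits that left out a library, the calls of ATP5MC3 and ATP5F1B were lost in 3 each and that of ATP5F1C in 1. In complex II, SDHB and SDHD, the iron-sulfur subunit and a membrane anchor, fell by 0.64 and 0.67 (edgeR adjusted p = 0.00876 and 0.0281), while SDHA stood at -0.91 (edgeR adjusted p = 0.0572) and SDHC at 0.01. The call of SDHB was lost in 2 of the 4 fits that left out a library and that of SDHD in 3. With mRNA transcripts alone summed, the value of SDHA turned to 1.25 (edgeR adjusted p = 0.226). The count of falls depends on single libraries: it was 3 without the separate D8 library, 5 without the separate D0 library, 13 without the joint D0 library and 21 without the joint D8 library. With the table of origin as a term in the fit it was 29.

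**Figure D2:**
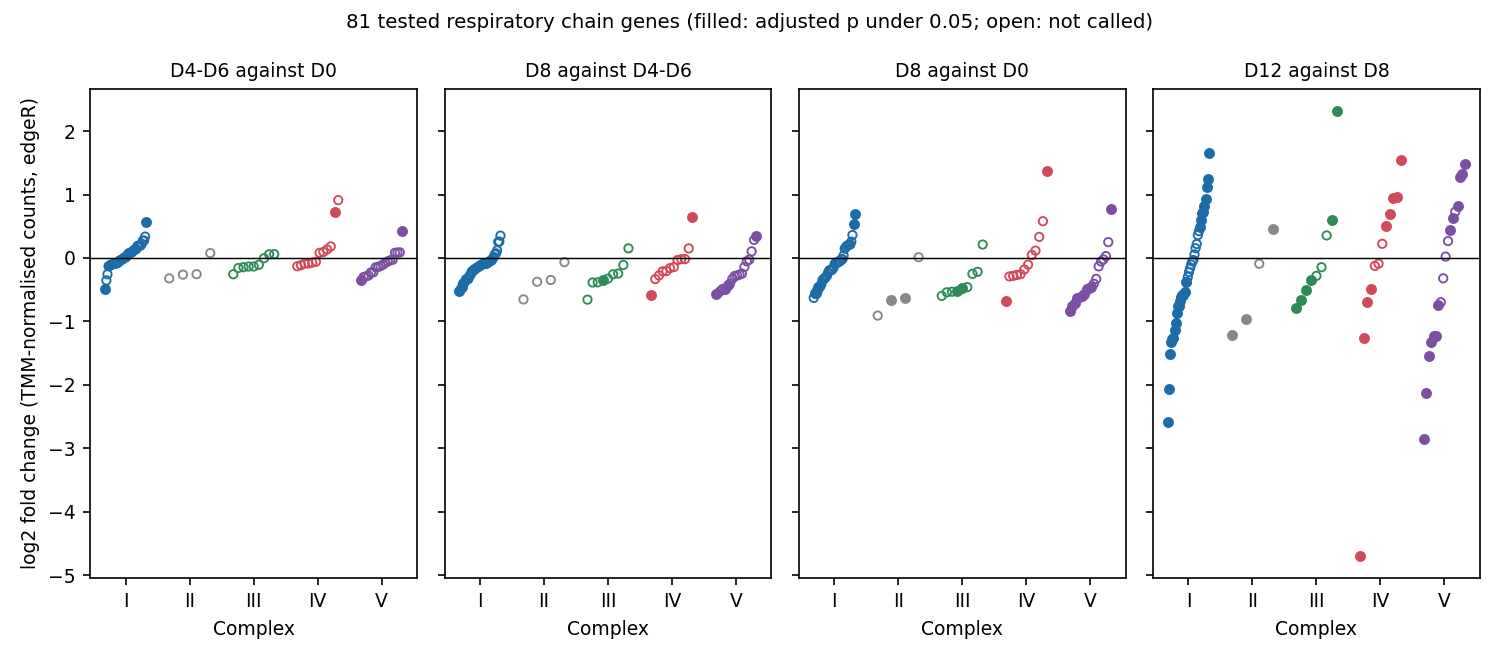
Log2 fold change of each of the 81 tested members (points, ordered within each complex) in the 4 comparisons, with filled points for an edgeR adjusted p under 0.05 and open points for the rest. Through D8 most points are open and lie within 1 log2 unit of 0, and from D8 to D12 filled points spread on both sides of 0 in every complex.

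From D8 to D12 members changed in both directions, as did genes at large. With TMM scaling 23 of the 81 rose, against 23.8% of all genes tested, and 34 fell, against 33.4%, which is 28.4% and 42.0% of the members. The median log2 fold change was -0.16 for the members and -0.20 for all genes. On log2(TPM + 1), where the globin mRNAs of D12 take most of the total, limma gave 1 member higher, against 6.46% of 11953 genes, and 71 lower, against 70.6%, with medians of -1.57 for the members and -1.21 for all genes. The sign of a fold change on D12 therefore depends on the scaling, and upper-quartile scaling gave 28 higher and 27 lower. All 23 members that rose under TMM lay above the median of all genes under both scalings, all 34 that fell lay below it under both, and 12 of the 24 others changed sides. Both scalings use the same libraries, so these positions are not a separate test. The medians were taken over 16784 genes for edgeR and 11953 for limma. Rises and falls below are on the TMM scale.

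Leaving out libraries changed the counts from D8 to D12 to between 14 and 25 higher and between 26 and 32 lower, with the 14 found without the joint D12 library. In every fit that left out a library, 14 of the 23 rises and 25 of the 34 falls passed the test. Ratios of the counts of pairs of genes, picked after their values were seen, do not depend on the scaling. They show how a pair changed and not which gene was the more abundant. COX6A1 over COX5A was at 1.14 and 1.04 on D0, 1.30 and 1.64 on D8 and 11.6 and 8.36 on D12. UQCR11 over UQCRC2 was at 0.394 and 0.519, 0.451 and 0.729 and 4.78 and 4.89 on the same days. SDHB over SDHC was at 0.984 and 1.498 on D0, 0.705 and 0.850 on D8 and 3.22 and 1.81 on D12. ATP5F1E over ATP5MC3 was at 0.716 and 0.693, 1.73 and 2.78 and 64.4 and 30.1, and NDUFA2 over NDUFA9 at 0.340 and 0.285, 0.590 and 0.793 and 12.8 and 12.5. In each pair both D12 libraries lay above all of D0 and D8.

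In complex I, 9 of the 38 genes rose (23.7%) and 17 fell (44.7%) from D8 to D12, against 23.8% and 33.4% of all genes. None of the 6 core subunits described here, which belong to the part that holds the flavin and the iron-sulfur clusters, rose in the edgeR test, also at an unadjusted p under 0.05. NDUFV1, which binds NADH and the flavin, went from 101 and 77.0 CPM to 38.4 and 34.6 (log2 -1.28 ± 0.26, edgeR adjusted p = 7.89e-04). NDUFS3 went from 51.3 and 48.7 to 31.7 and 23.1 CPM (-0.87 ± 0.16, edgeR adjusted p = 4.07e-04). NDUFS1, the largest core subunit, fell by 0.75 (edgeR adjusted p = 0.0267), a call lost without the joint D8 library (edgeR adjusted p = 0.299) or the joint D12 library (0.161).

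NDUFS7, NDUFS8 and NDUFV2 stood between -0.05 and 0.15 and did not pass the test. Among the 31 accessory subunits 9 rose (NDUFA1, NDUFA2, NDUFA3, NDUFA11, NDUFA13, NDUFB7, NDUFB10, NDUFS6 and NDUFV3) by 0.49 to 1.65, and 14 fell (NDUFA7, NDUFA8, NDUFA9, NDUFA12, NDUFAB1, NDUFB3, NDUFB4, NDUFB5, NDUFB6, NDUFB8, NDUFC1, NDUFC2, NDUFS4 and NDUFS5), with log2 fold changes of -0.38 to -2.59. Of these calls, those of NDUFB10, NDUFB7, NDUFS6 and NDUFA7 were lost in at least 1 fit that left out a library. NDUFA9 (chr12:4649095-4694317, hg38, plus strand), at the joint of the membrane and matrix arms, was at 88.5 and 77.4 CPM on D0, 74.1 and 51.0 on D8 and 11.7 and 9.10 on D12. Both D12 libraries were below all others, and the log2 fold change from D8 was -2.59 ± 0.23 (edgeR adjusted p = 5.99e-07). NDUFA8 went from 49.4 and 46.1 CPM to 11.7 and 11.1 (-2.07 ± 0.11, edgeR adjusted p = 4.06e-09). NDUFA2 (chr5:140638740-140647771, minus strand) was at 43.7 and 40.5 CPM on D8 and 149.9 and 114 on D12, above all earlier libraries, with a log2 fold change of 1.65 ± 0.23 (edgeR adjusted p = 2.99e-05).

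On the TPM scale NDUFA2 was at 115 and 87.6 on D8 and 103 and 109.6 on D12, a log2 difference of 0.08. NDUFB9, the most abundant complex I mRNA by mean TPM, was at 913 and 598 TPM on D8 and 387 and 331 on D12, and its TMM-scaled log2 fold change of 0.42 ± 0.43 did not pass the test.

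The 4 genes of complex II, succinate dehydrogenase, did not move together from D8 to D12. SDHA, the flavoprotein, was at 157 and 87.6 CPM on D8 and 71.9 and 54.2 on D12 (log2 -0.96 ± 0.35, edgeR adjusted p = 0.0321), and SDHC, a membrane anchor, at 77.0 and 52.2 and 24.9 and 30.5 CPM (-1.22 ± 0.28, edgeR adjusted p = 0.00191). SDHB, whose promoter with all 3 motifs is printed above, was at 54.3 and 44.4 CPM on D8 and 80.1 and 55.1 on D12 (0.45 ± 0.16, edgeR adjusted p = 0.0304). The D8 and D12 libraries did not overlap for any of the 3. SDHD, the other anchor, stood at -0.09 (edgeR adjusted p = 0.755). The call of SDHA was lost without the joint D8 library (-0.49), without the joint D12 library (-1.18) and without the separate D12 library (-0.80). That of SDHB was lost without the joint D12 library (0.15) and without the separate D8 library (0.30).

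In complex III, 2 of the 9 genes (22.2%) rose (UQCR10 and UQCR11) and 4 (44.4%) fell, among them all 3 core subunits. The shares of all genes in this step were 23.8% and 33.4%. UQCRC1, UQCRC2 and UQCRFS1 fell by 0.50, 0.78 and 0.35 from D8 to D12 (edgeR adjusted p = 0.0272, 0.0141 and 0.0349). Each of these 3 calls was lost without the joint D8 library or without the separate D12 library, with adjusted p values of 0.0862 to 0.189, and that of UQCRFS1 also without the separate D8 library (0.0773). UQCRH, the acidic hinge protein, went from 106 and 103 CPM to 67.5 and 64.5 (-0.66 ± 0.11, edgeR adjusted p = 1.20e-04). Its near-identical copy UQCRHL had between 9 and 73 counts in a library, and reads of the copies cannot be told apart with certainty. UQCR10 rose by 0.59 (edgeR adjusted p = 0.0185), a call that held in 1 of the 4 fits that left out a library.

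UQCR11 (chr19:1597169-1605473, hg38, minus strand), a small accessory subunit, was at 89.1 and 102 CPM on D0, 76.6 and 87.4 on D8 and 446 and 369 on D12. Both D12 libraries lay above every earlier one, and the log2 fold change from D8 of 2.31 ± 0.15 (edgeR adjusted p = 2.88e-08) was the largest rise among the members. UQCR11 was also the only member called higher on the TPM scale in this step, at 106 and 100.3 TPM on D8 and 180.1 and 196 on D12 (log2 0.86, limma adjusted p = 4.00e-05). On D0 it had 175 and 189 TPM, a range that overlapped D12.

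In complex IV, 5 of the 12 tested genes rose (41.7%) and 4 fell (33.3%) from D8 to D12, against 23.8% and 33.4% of all genes. COX6A1 (chr12:120438090-120440737, hg38, plus strand), the isoform of subunit 6A outside muscle, was at 102 and 113 CPM on D0, 89.4 and 91.2 on D8 and 323 and 202 on D12 (log2 1.54 ± 0.18, edgeR adjusted p = 5.56e-06). COX6B1 and COX7A2 rose by 0.94 and 0.96 (edgeR adjusted p = 1.06e-04 and 1.18e-04), from 128 and 127 to 288 and 202 CPM and from 96.9 and 88.1 to 211 and 149 CPM. D8 and D12 did not overlap in these 3 genes, and on the TPM scale their log2 differences were 0.05, -0.53 and -0.83, above the median of all genes of -1.21.

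COX7B rose by 0.69 (edgeR adjusted p = 0.00266, and 0.0587 without the joint D12 library), and COX4I1, known as an early partner of COX5A in assembly, stood at -0.09 and did not pass the test. COX5A (chr15:74919791-74938083, minus strand) was at 68.7 and 55.5 CPM on D8 and 27.9 and 24.1 on D12, below all earlier libraries on D12 (log2 -1.26 ± 0.17, edgeR adjusted p = 2.07e-05). COX8A fell by 0.49 (edgeR adjusted p = 0.0319), a call lost without either separate library (adjusted p = 0.210 for D8 and 0.263 for D12). COX6B2, the isoform known from testis, was low throughout, with at most 4.14 CPM, and had 156 and 77 counts on D8 against 0 and 5 on D12 (edgeR adjusted p = 1.65e-04). COX5B rose by 0.51 and COX6C fell by 0.70 (edgeR adjusted p = 0.00680 and 0.0315), the latter in 2 of the 4 fits that left out a library, and COX7C stood at -0.12. The fitted log2 fold change of COX6B2 depends on the prior count and is not given as a size.

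COX7A2L rose in both steps up to D8, and without the separate D8 library its call was lost in the latter step. In the joint libraries it went from 84.7 CPM on D0 through 113 on D3 and 135 on D6 to 206 on D7, and in the separate libraries from 88.0 through 131 and 172 to 226. On D12 it was at 279 and 245 CPM, above all earlier libraries, and the log2 fold change from D8 of 0.22 ± 0.15 did not pass the test (edgeR adjusted p = 0.226). On the TPM scale it was at 88.6 and 93.9 on D12, below all earlier libraries. The gene was at 118 and 115 TPM on D0 and 204 and 179 on D8, so the rise to D8 was present on both scales. Its longest listed mRNA, NM_004718, carried 67.8 and 70.1 TPM on D0 and 134 and 116 on D8, while the non-coding NR_134947 varied between 0 and 53.1 TPM from library to library.

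**Figure D3:**
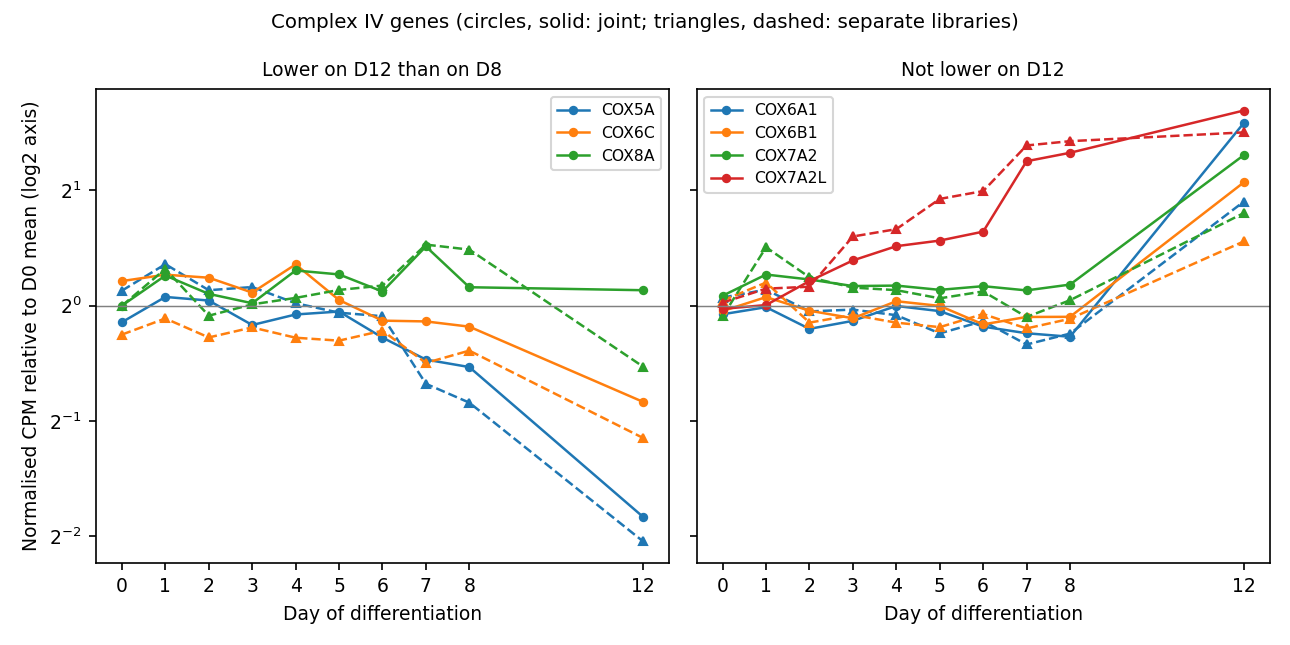
Normalised CPM relative to the mean of the D0 libraries (log2 axis) of complex IV genes by day, with 3 genes that were lower on D12 than on D8 in the left panel and 4 that were not in the right panel, and a line style for each of the 2 libraries. COX7A2L climbs from D2 to D8 in both libraries, COX6A1, COX6B1 and COX7A2 climb between D8 and D12, and COX5A lies lowest on D12.

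In complex V, 6 of the 18 tested genes rose (33.3%) and 7 fell (38.9%) from D8 to D12, against 23.8% and 33.4% of all genes. The 3 c ring genes encode the same mature subunit and all fell. ATP5MC3 (chr2:175176258-175181710, hg38, minus strand) was at 111 and 71.6 CPM on D8 and 9.62 and 15.7 on D12 (log2 -2.85 ± 0.30, edgeR adjusted p = 2.66e-06). ATP5MC1 (chr17:48892765-48895871, plus strand) was at 60.0 and 31.6 and 10.8 and 10.2 CPM (-2.12 ± 0.35, edgeR adjusted p = 1.38e-04). ATP5MC2 (chr12:53632726-53677408, minus strand) was at 124 and 103 and 56.1 and 40.4 CPM (-1.23 ± 0.16, edgeR adjusted p = 1.91e-05).

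Both D12 libraries were below all others for each c ring gene, and every call held when a library was left out. Of the 3, ATP5MC2 had the highest TPM on D12 (44.7 and 42.0), followed by ATP5MC1 (9.74 and 11.9) and ATP5MC3 (1.92 and 4.14), whereas on D0 the values were 609 and 586, 325 and 273 and 162 and 146. The TPM values of the 3 genes did not overlap on either day.

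In the F1 head, ATP5F1A, the alpha subunit, was at 907 and 506 CPM on D8 and 252 and 232 on D12 (-1.55 ± 0.47, edgeR adjusted p = 0.0124), and the gamma subunit gene ATP5F1C at 139.8 and 88.2 and 49.2 and 47.7 CPM (-1.23 ± 0.19, edgeR adjusted p = 7.87e-05). ATP5F1A also differed between the libraries of a day, with 1141 and 732 CPM on D0, and its call was lost without the joint D8 library (-1.08, edgeR adjusted p = 0.121) or without either D12 library (0.0576 and 0.0678). The beta subunit gene ATP5F1B, which forms the hexamer with alpha, stood at 567 and 422 CPM on D8 and 554 and 449.6 on D12 (0.02 ± 0.21, edgeR adjusted p = 0.958), with overlapping libraries. ATP5F1D, the delta subunit, was at 0.73 ± 0.32 (edgeR adjusted p = 0.0684). ATP5F1E (chr20:59025475-59032345, minus strand) was at 191 and 199 CPM on D8 and 619 and 475 on D12 (1.49 ± 0.14, edgeR adjusted p = 8.63e-07), above all earlier libraries. Its TPM was 95.6 and 82.1 on D8 and 89.9 and 90.9 on D12, which overlap, and rests on a listed transcript of 3610 bases.

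The groups that follow were formed after values had been seen and are given as counts. All 5 small membrane subunits of ATP synthase, ATP5MD, ATP5ME, ATP5MF, ATP5MG and ATP5MPL, rose from D8 to D12, where 23.8% of all genes rose and 33.4% fell. Their median log2 fold change was 0.82, with a range of 0.44 to 1.32, against -2.12 for the 3 c ring genes. The contrast between these groups was not tested. On the TPM scale all 5 had negative log2 differences, from -0.15 (ATP5MG) to -1.08 (ATP5MPL), where the median of all genes was -1.21. ATP5MG went from 109 and 124 CPM to 347 and 235 and ATP5MD from 32.9 and 39.5 to 91.4 and 83.5, and both calls held in every fit that left out a library. Those of ATP5ME, ATP5MF and ATP5MPL each held in 2 of the 4 such fits. Among the 4 peripheral stalk genes ATP5PO and ATP5PB fell by 1.32 and 0.74 (edgeR adjusted p = 3.83e-07 and 7.51e-04), while ATP5PD and ATP5PF stood at -0.32 and 0.27. The readthrough ATP5MF-PTCD1 varied between 0 and 1290 counts in a library, and reads it shares with ATP5MF cannot be told apart.

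**Figure D4:**
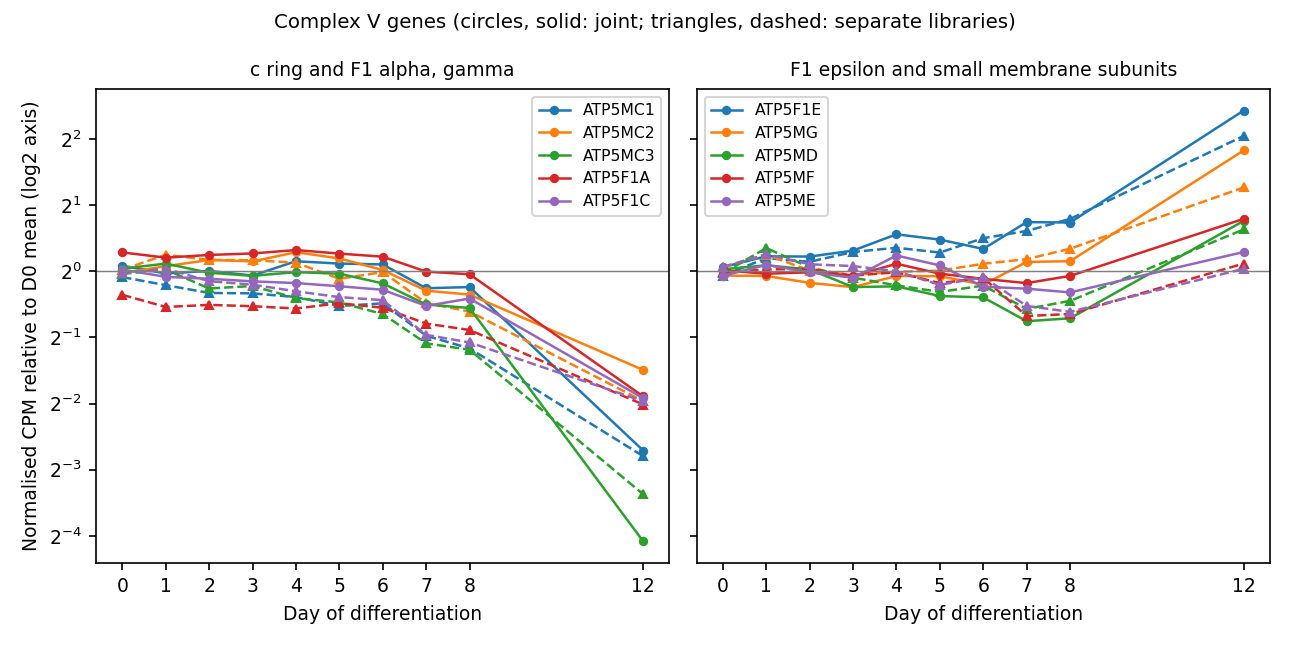
Normalised CPM relative to the mean of the D0 libraries (log2 axis) of complex V genes by day, with the c ring, alpha and gamma genes in the left panel and epsilon and 4 small membrane subunits in the right panel, and a line style for each of the 2 libraries. The left panel ends below 1 for all 5 genes on D12 and the right panel ends above 1 for all 5, and ATP5F1A differs between the libraries before D12.

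The motifs were also counted by what the members did from D8 to D12, after values had been seen and as a description without a test. Among members with a promoter in the table, the ETS core was in 11 of 22 that rose (50%), in 4 of 28 that fell (14.3%) and in 5 of 17 that did neither (29.4%). Over all tested mRNA genes the shares were 22.3%, 19.6% and 17.5%. The 11 were ATP5MD, ATP5ME, ATP5MG, COX5B, COX6A1, COX6B1, NDUFA1, NDUFA13, NDUFB7, SDHB and UQCR11. The YY1 core was in 2 of 22 that rose and in 6 of 28 that fell, and the NRF1 core in 5 of 22 and 4 of 28. The members that rose also had shorter lead transcripts, with a median of 615 bases against 998 for those that fell, where all tested mRNA genes had 3058 and 3346. The part of transcript length in these counts was not tested.

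The 13 subunits encoded in mitochondrial DNA, a list formed after values had been seen, held 66568 and 66081 TPM on D0, 33837 and 30207 on D8 and 4428 and 6595 on D12. From D0 to D8 none rose and 1 fell (CYTB), and from D8 to D12 none rose and 11 fell (edgeR, with 0 higher at an unadjusted p under 0.05 in either step), with a median log2 fold change of -1.27 against -0.16 for the nuclear members. Of all genes tested, 17.7% rose and 19.4% fell from D0 to D8, and 23.8% and 33.4% from D8 to D12. Relative to the nuclear members their summed TPM went from 2.94 and 3.21 times on D0 to 2.37 and 2.90 times on D8 and 0.873 and 1.29 times on D12. The D12 pair lay below all earlier libraries, and the highest ratio, 3.92, was in the separate D6 library. ND3 and ATP8 fell by 1.88 and 1.62 (edgeR adjusted p = 9.02e-05 and 0.00211).

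Among partners of the chain outside the symbol families, CYC1 did not pass the test in any step. CYCS, cytochrome c, was at 124 and 136 TPM on D0, 49.0 and 35.3 on D8 and 5.97 and 11.4 on D12, without overlap. It fell by 1.04 from D0 to D8 and by 0.86 from D8 to D12 on the TMM scale (edgeR adjusted p = 9.11e-04 and 0.00142). ATP5IF1, the inhibitor of ATP synthase, was at 312 and 261 TPM on D0, 538 and 439 on D4, 489.9 and 235 on D8 and 38.0 and 31.3 on D12. On the TMM scale it rose by 1.04 from D0 to D4-D6 and fell by 1.84 from D8 to D12 (edgeR adjusted p = 0.00234 and 1.04e-05). NDUFA4L2, a relative of NDUFA4, had 0 and 6 counts on D0 and 19 and 70 on D8 (edgeR adjusted p = 0.0487), and C15orf48 had at most 8 counts in a library.

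Assembly factors were taken from lists of 15 genes for complex I, 4 for complex II, 6 for complex III, 21 for complex IV and 4 for complex V. From D0 to D8 they stood, in that order, at 1, 0, 2, 1 and 2 genes higher and 8, 1, 2, 9 and 1 lower, with medians of -0.60, -0.20, 0.25, -0.50 and 0.21, where 17.7% of all genes were higher and 19.4% lower. UQCC3, which takes part in cytochrome b assembly, was at 10.3 and 5.44 TPM on D0 and 16.6 and 12.8 on D8 (2.82-fold on the TMM scale, edgeR adjusted p = 2.30e-04). The copper chaperone SCO2 and COA6, which act on the copper centre of complex IV, fell by 2.45 and 1.88 (edgeR adjusted p = 0.00949 and 2.72e-05).

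From D8 to D12 the assembly factors counted 4, 1, 0, 5 and 1 higher and 5, 2, 6, 8 and 2 lower, in the same order, where 23.8% of all genes were higher and 33.4% lower. All 6 complex III factors fell, with a median of -2.16, among them UQCC2 and BCS1L, which inserts the Rieske protein. Their log2 fold changes were -2.51 and -2.67 (edgeR adjusted p = 1.41e-08 and 7.66e-06). In complex I, NUBPL and FOXRED1 fell, with log2 fold changes of -3.77 and -2.73 (edgeR adjusted p = 5.43e-06 and 3.69e-07). ECSIT rose by 1.45 and NDUFAF8 by 1.24 (edgeR adjusted p = 9.21e-07 and 0.00560). On the TPM scale NDUFAF8 was at 64.3 and 58.7 on D8 and lower, at 47.2 and 52.4, on D12. The TPM of ECSIT overlapped, at 36.4 and 28.7 on D8 and 31.2 and 33.2 on D12. In complex V, TMEM242 rose by 1.93 and TMEM70, which assists the c ring, fell by 1.62 (edgeR adjusted p = 6.63e-08 and 1.60e-06). TMEM242 was also higher in TPM, at 13.5 and 9.89 on D8 and 15.2 and 17.1 on D12.

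Of the 13 citric acid cycle genes none rose in the edgeR test (1 at an unadjusted p under 0.05) and 6 fell from D0 to D8, and 2 rose and 6 fell from D8 to D12. The shares of all genes were 17.7% and 19.4% in the first of these steps and 23.8% and 33.4% in the other. SUCLG2 and FH, of succinyl-CoA ligase and fumarase, fell by 3.35 and 3.01 in the latter step (edgeR adjusted p = 7.72e-07 and 2.17e-07). OGDH, of the oxoglutarate dehydrogenase complex, rose by 1.37 (edgeR adjusted p = 1.85e-06). On the TPM scale OGDH was at 51.9 and 45.1 on D8 and 41.8 and 50.8 on D12, which overlap. The 78 mitochondrial ribosomal protein genes counted 0 higher in the edgeR test (1 at an unadjusted p under 0.05) and 42 lower from D0 to D8, with a median of -0.43, and 14 higher and 39 lower from D8 to D12, with a median of -0.51. Their share of falls from D0 to D8, 53.8%, compares with 22.2% of the respiratory chain members and 19.4% of all genes. The difference between the lists was not tested, and the list counts were not repeated without the separate D8 library.

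Among 15 tested genes for mitochondrial DNA transcription and its nuclear regulators, 2 rose and 10 fell from D0 to D8, against 17.7% and 19.4% of all genes. The 2 were NRF1, whose core is printed above, and GABPB1, the partner of the DNA-binding GABPA in GABP, at log2 0.64 ± 0.11 and 0.76 ± 0.13 (edgeR adjusted p = 6.99e-04 and 6.88e-04). GABPA itself fell, with a log2 fold change of -0.64 ± 0.16 (edgeR adjusted p = 0.00701). On the TPM scale the D0 and D8 libraries overlapped for NRF1 and for GABPB1, and NRF1 was at 18.9 and 15.4 on D8 and 5.30 and 7.13 on D12. From D8 to D12, 3 rose and 6 fell, against 23.8% and 33.4% of all genes. YY1 rose by 1.64 and ESRRA by 1.23 (edgeR adjusted p = 1.44e-08 and 4.76e-05), but for both the D8 and D12 libraries overlapped on the TPM scale. TFB1M, a mitochondrial rRNA methyltransferase, fell by 2.50 (edgeR adjusted p = 1.10e-07). The coactivator PPARGC1B had 324 and 130 counts on D8 and 0 and 2 on D12, and PPARGC1A had at most 2 counts in a library.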

How the data were processed

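RNA-seq libraries of HUDEP-2 cells, made from total RNA with a stranded mRNA kit, were compared over 10 days with 2 libraries a day. Per the submitters' processing notes, reads were trimmed with Trimmomatic 0.38, aligned to hg38 with HISAT2 2.1.0 and assembled and quantified with StringTie 2.1.3b. The authors deposited unnormalised read counts per transcript, and beside them TPM and FPKM values. The TPM values were made by the authors per transcript. FPKM was not used. The authors' counts and TPM of 170322 transcripts were summed to 46425 genes by gene symbol. Day 0 has 3 sets of columns for 2 samples, and those beside day 12 were left out. In all, 23 per-library columns were not used.

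Libraries held 52131713 to 70358198 counts, and zero limits (3 counts) cover counting error only. Standard errors come from the edgeR fit and include the spread between libraries. Genes were filtered with filterByExpr, scaled by TMM and tested with edgeR 4.0.16 (R 4.3.3; glmQLFit and glmQLFTest) in a fit of 20 libraries with a coefficient per day and 10 residual degrees of freedom, with Benjamini-Hochberg adjustment and a threshold of 0.05. The standard error of a log2 fold change was taken from it and the F statistic, as its size over the root of F. Genes with a mean TPM of at least 1 were also tested with limma 3.58.1 on log2(TPM + 1). Other alternatives were DESeq2 1.42.0, edgeR's exact test, other scalings and filters, mRNA transcripts alone, a table term, the compared days alone and each library left out. The fits were tested on simulated data first.

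The members and gene lists were chosen with earlier results of these data known. Named members were the complex II genes, the core subunits of complexes I and III, the F1 genes, isoform groups, the 3 largest significant changes each way in each comparison and the most abundant member of each complex, and others are named after their values were seen. Of these, 1 is not reported here by name. Lists of mtDNA-encoded subunits, complex V groups and gene pairs, and the promoters printed, were also chosen after values were seen. Gene positions are those of GENCODE v44 on hg38.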

Additional observations from a re-analysis of the deposited data

How the results depend on the processing

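No paired analysis was possible because the deposited columns carry no replicate number; the table of origin, which is no replicate number, was used as a term instead. The counts of members from D0 to D4-D6 were 3 higher and 2 lower. They became 1 and 5 with limma at either pseudocount, 5 and 4 with edgeR's exact test, 4 lower with DESeq2, 7 lower with the table as a term and 1 lower without the count filter, and leaving out libraries gave 1 to 3 higher and 0 to 2 lower. From D4-D6 to D8 they were 2 and 7. They became 0 and 62 with limma at either pseudocount, 1 and 4 with the compared days alone, 24 lower with the table term, 16 lower with DESeq2, 12 lower with the exact test, 1 higher without the filter, and 0 and 0 without the D7 and D8 libraries rich in ribosomal RNA, which was chosen after seeing the data. Leaving out libraries gave 0 to 2 higher and 0 to 16 lower. From D0 to D8 they were 4 and 18. They became 1 and 63 with limma at either pseudocount, 2 and 1 with the compared days alone, 29 lower with the table term, 7 lower with the exact test and 4 lower without the libraries rich in ribosomal RNA, and leaving out libraries gave 2 to 4 higher and 3 to 21 lower. From D8 to D12 they were 23 and 34. They became 1 and 71 with limma, 1 and 72 with a pseudocount of 0.1 and 19 lower with the compared days alone, and leaving out libraries gave 14 to 25 higher and 26 to 32 lower. The compared days alone leave fewer libraries to estimate the spread, and the cause of the other changes was not tested.

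For the 41 tested members of the naming rule, values called in at least 1 of the fits compared turned their sign on the TPM scale. Other members that rose from D8 to D12 under TMM did so too and are not listed, such as ATP5MG at -0.15 and ATP5MPL at -1.08. With pseudocounts of 1 and 0.1, the log2 differences from D8 to D12 were -1.41 and -1.42 for ATP5F1B, -0.63 and -0.63 for ATP5F1D, -1.16 and -1.18 for ATP5PF, -0.53 and -0.53 for COX6B1, -0.83 and -0.84 for COX7A2, -1.06 and -1.07 for COX7A2L, -0.77 and -0.79 for COX7B, -1.22 and -1.24 for NDUFB2, -1.52 and -1.54 for NDUFS7, -1.40 and -1.42 for NDUFS8 and -0.99 and -1.01 for SDHB, and -1.05 for NDUFB9 with 0.1. From D4-D6 to D8 they were -0.10 and -0.10 for ATP5F1E and -0.30 and -0.30 for COX8A, and from D0 to D8 -0.077 and -0.079 for NDUFS4 and -0.55 and -0.55 for NDUFS8. Among the gene values of the 41 members, 2675 kept their side of the threshold with no called value changing sign. Of the 2675, 147 changed sign and were called in neither fit. A further 193 lost the call, 168 gained one and 31 reversed. Among the 147, SDHA with mRNA transcripts alone was at 1.25 from D0 to D8 and 1.17 from D4-D6 to D8. TMM factors set without globin or without ribosomal RNA genes changed none of these gene values' direction or call.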
